A study of Homo sapiens with 6 samples.

Results

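The adenylyl cyclases are the 10 enzymes, encoded by ADCY1 to ADCY10, that turn ATP into the second messenger cAMP. Their rows were taken by symbol from the deposited gene tables. All 10 had a row in the FPKM table of 34977 genes, 8 had one in the count table of 31122 genes, and 5 (ADCY3, ADCY6, ADCY7, ADCY9 and ADCY10) had enough counts to be among the 17420 genes tested. The cells were MDA-MB-468, a basal-like breast cancer cell line that lacks the hormone receptors and HER2 amplification. One group held 3 cultures of the unedited parental line, labelled WT and grown in parallel wells of a plate, and the other held 3 populations labelled GPR52 KO, titled 11, 12 and OG and here called KO-labelled 1, 2 and 3. All cells were of that line, and the KO-labelled populations had been edited with CRISPR-Cas9 and a single guide RNA against GPR52, with indels checked by the submitters through Sanger sequencing. Their clonality and relation to each other are not stated, and no culture edited with a control guide was analysed here, so editing, selection and time in culture cannot be told apart from the label. P-values therefore weigh the difference between groups against the spread between these cultures, which may be partly technical. Parallel wells of the same line are not independent replicates of the parental condition, so that spread may understate the variation.

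A receptor that couples to the stimulatory G protein Gs drives cAMP synthesis through adenylyl cyclase, and GPR52 is an orphan receptor of that kind. The membrane-bound members, ADCY1 to ADCY9, all respond to the Gs alpha subunit but differ in their other inputs. ADCY1, ADCY3 and ADCY8 are conventionally grouped as stimulated by calcium and calmodulin, ADCY2, ADCY4 and ADCY7 as stimulated by G protein beta-gamma subunits, and ADCY5 and ADCY6 as inhibited by calcium and by the inhibitory G protein Gi. ADCY9 responds poorly to the plant diterpene forskolin, which activates the other membrane-bound enzymes, and ADCY10 is the soluble, bicarbonate-sensing enzyme.

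ADCY7 and ADCY3, the members called higher in KO-labelled cultures, differ in the sequence before their start sites. The 250 bases before the most upstream start of each gene in RefSeq (GRCh38.p14) are shown for that contrast, 5′ to 3′ on the strand of the gene, with CpG dinucleotides in capitals.
ADCY7 (chr16:50266301-50266550, plus strand): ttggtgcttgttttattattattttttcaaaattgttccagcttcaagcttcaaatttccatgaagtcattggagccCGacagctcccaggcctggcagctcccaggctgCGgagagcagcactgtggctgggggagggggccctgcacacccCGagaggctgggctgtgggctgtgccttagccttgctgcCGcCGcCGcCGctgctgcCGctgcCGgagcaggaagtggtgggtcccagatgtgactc
ADCY3 (chr2:24920238-24920487, minus strand): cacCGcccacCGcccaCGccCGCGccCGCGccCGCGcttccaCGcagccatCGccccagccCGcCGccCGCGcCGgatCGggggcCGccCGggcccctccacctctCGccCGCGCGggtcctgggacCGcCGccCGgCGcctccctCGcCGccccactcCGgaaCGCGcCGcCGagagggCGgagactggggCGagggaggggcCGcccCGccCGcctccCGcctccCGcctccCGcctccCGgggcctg
The ADCY7 stretch held 9 CpG dinucleotides at a GC content of 59.6%, and the ADCY3 stretch held 43 at 85.2%. Over 35116 RefSeq stretches of 250 bases taken in the same way, the medians were 11 CpG dinucleotides and 58.0% GC. The GC box GGGCGG, counted on both strands, occurred 9 times before ADCY3, with matches that may overlap, and 0 times before ADCY7, and 42.6% of all stretches held at least 1. Neither stretch held the cAMP response element TGACGTCA, which 1.65% of all stretches held, or its half-site TGACG, which 21.2% held, again on both strands, and neither held TATAAA, which 10.7% held. RefSeq also gave ADCY3 a start further downstream, whose 250 bases held 35 CpG dinucleotides, 2 GC boxes and 1 half-site TGACG. These matches describe letters in a short window, and no binding was measured. Entries were matched for 7 of the 10 members.

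Total gene counts ranged from 25637794 to 31692454 per library, so that 1 count was worth 0.0321 to 0.0397 CPM (counts scaled to a common library size by TMM). The cyclase genes together held 5229 to 6671 counts per library. GPR52, the targeted gene, had 9, 1 and 0 counts in the parental libraries and 645, 694 and 724 in KO-labelled 1 to 3, more transcript under the label of a knockout, so the edited libraries are called KO-labelled throughout. Of all tested genes 7105 (40.8%) were called at an adjusted p under 0.05 (edgeR quasi-likelihood test, Benjamini-Hochberg over all tested genes). Pearson correlations of log2 CPM across genes were 0.995 between parental libraries, 0.981 to 0.991 between KO-labelled ones, where KO-labelled 3 was the most distant, and 0.944 to 0.948 between groups. All 8 breast epithelial and basal-like markers (EPCAM, CDH1, KRT5, KRT7, KRT8, KRT18, KRT19 and EGFR) were detected in both groups, with a summed level of 12710 to 13055 CPM in parental and 11320 to 15919 CPM in KO-labelled libraries. EGFR was the largest part of that sum and reached 8307 CPM in KO-labelled 3. Of the markers 2 were called higher (EPCAM and KRT5) and 3 lower (CDH1, KRT7 and KRT18), beside 21% and 19.8% of all tested genes.

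The cyclase repertoire of these cells rested on a few genes. On the FPKM scale, which divides by transcript length and so allows levels of different genes to be compared, the order in parental libraries was ADCY3 with 43.7 ± 1.86 FPKM, ADCY6 with 16.8 ± 1.25, ADCY9 with 3.14 ± 0.361 and ADCY7 with 1.24 ± 0.340 (SD, n = 3). In KO-labelled libraries ADCY3 stood at 54.4 ± 3.22 FPKM and ADCY6 at 16.7 ± 3.41, while ADCY7 at 5.59 ± 1.58 had passed ADCY9 at 2.18 ± 0.266 (SD, n = 3). The libraries of each group did not overlap between any neighbours among these 4 genes. In CPM, which is not divided by length, the parental means were 96.6 ± 3.68 for ADCY6 and 90.5 ± 2.92 for ADCY3. The KO-labelled means were 84.9 ± 13.5 for ADCY6 and 106 ± 3.27 for ADCY3 (SD, n = 3 each). The ADCY3 lead in parental libraries was thus seen on the FPKM scale only, and why the scales differ was not tested. ADCY10, ADCY4, ADCY1 and ADCY5 had mean levels of 0.171 FPKM or less in either group, and ADCY4 overlapped with ADCY1 in the parental order and with ADCY10 in the KO-labelled order. ADCY2 and ADCY8, which are best known from the nervous system, had no row in the count table, and their highest values in any library were 2.3e-04 and 2.2e-04 FPKM.

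The summed FPKM of the 10 members was 67.4, 61.6 and 66.4 in the parental libraries and 79.1, 78.2 and 80.3 in KO-labelled 1 to 3. All 3 KO-labelled sums lay above all 3 parental ones. By share of that sum, ADCY3 held 67.0 ± 1.88% in parental and 68.7 ± 3.27% in KO-labelled libraries (SD, n = 3 each), which overlapped. ADCY7 went from 1.90 ± 0.440% to 7.06 ± 1.98%, ADCY9 from 4.80 ± 0.360% to 2.76 ± 0.356% and ADCY6 from 25.8 ± 1.29% to 21.0 ± 4.44% (SD, n = 3 each). For ADCY7 and ADCY9 the shares did not overlap between groups, whereas the ADCY6 share in KO-labelled 1, 25.4%, lay within the parental range of 24.5 to 27.1%. The group stimulated by beta-gamma subunits rose in share from 1.97 ± 0.439% to 7.27 ± 1.89% (SD, n = 3 each), nearly all of it ADCY7. Shares and sums are descriptions on the FPKM scale alone and were not tested. How many of all genes had groups without overlap was not computed on that scale. In CPM 54.4% of all tested genes had none.

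**Figure D1:**
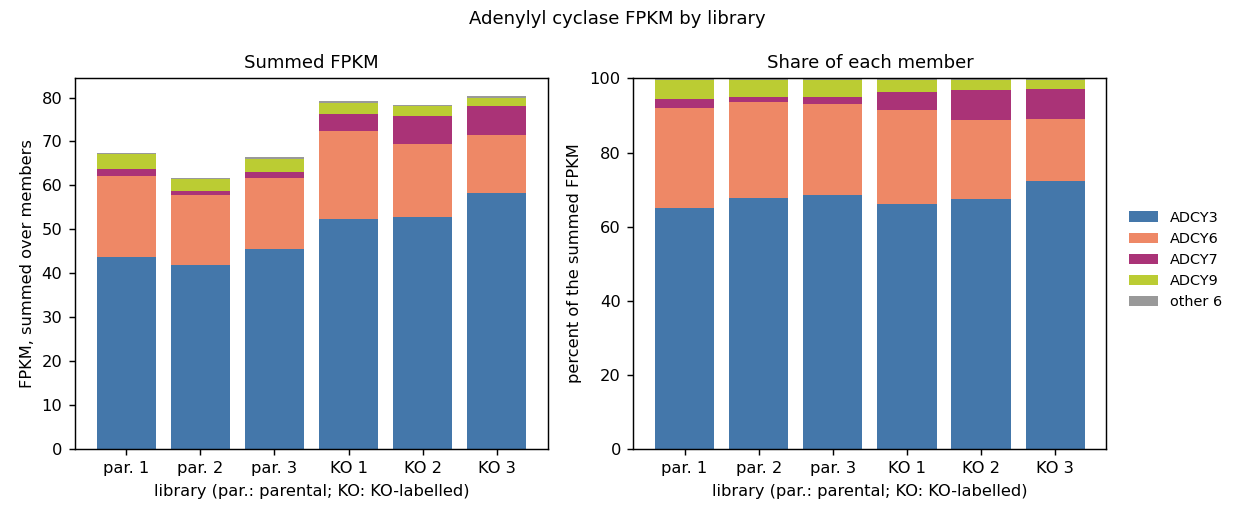
Stacked bars give the FPKM of the adenylyl cyclase genes in each of the 6 libraries (left, summed FPKM; right, percent of the sum), with ADCY3, ADCY6, ADCY7 and ADCY9 shown singly and the other 6 members together. ADCY3 fills about the same share of every bar, and the ADCY7 segment is widest in KO-labelled 2 and 3, at 8.23% and 8.17%.

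Among the 5 tested members ADCY7 and ADCY3 were called higher, ADCY9 lower, and ADCY6 and ADCY10 not called, so 3 of 5 were called where 40.8% of all tested genes were (21% higher and 19.8% lower). With so few members that count says little about the family. The median log2 fold change of the 5 was 0.20, beside 0.01 over all tested genes. That median is the estimate of ADCY10 (SE 0.42), a gene with 6 to 16 counts per library, and shows no shift of the family. In CPM the groups did not overlap for ADCY3, ADCY7 and ADCY9, and 54.4% of all tested genes had groups that did not overlap. In RNA from whole cultures, a change in the share of cells that express a gene and a change in RNA per cell cannot be told apart.

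**Figure D2:**
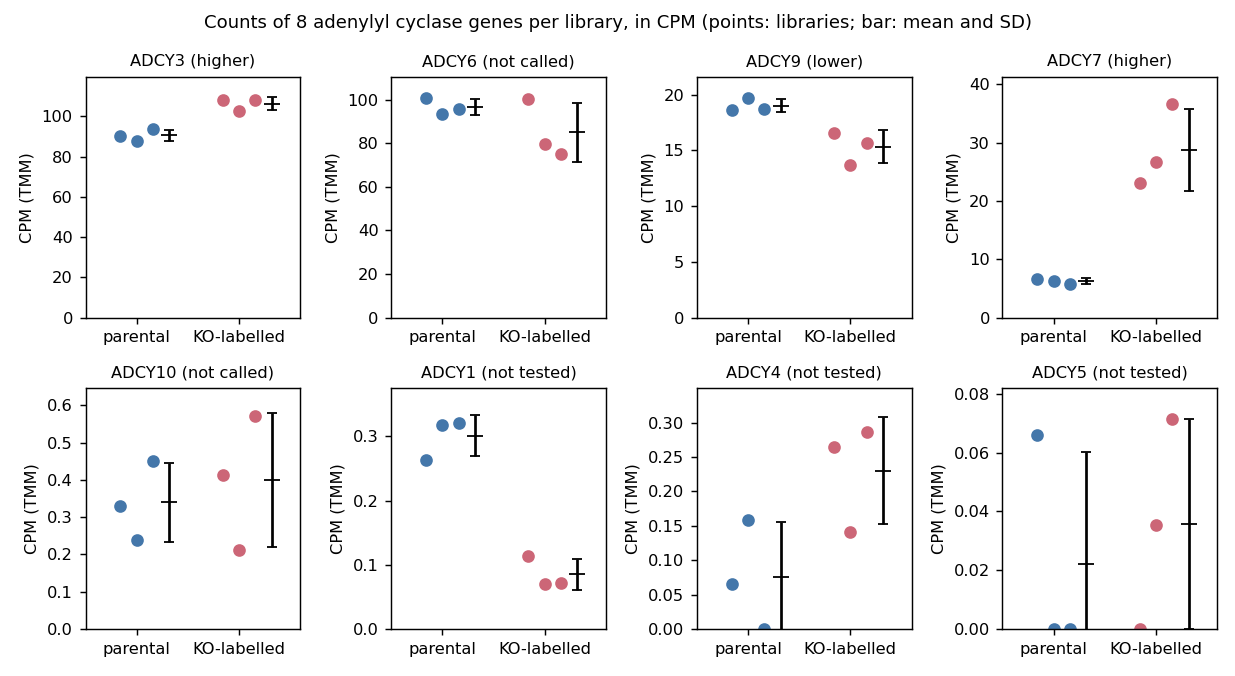
Each panel gives CPM (scaled to library size by TMM, axis from 0, different in each panel) of 1 cyclase gene, with a point per library and the mean and SD of 3 libraries beside them. ADCY7 lies between 5.72 and 6.70 CPM in the parental and between 23.1 and 36.6 CPM in the KO-labelled libraries, and the panels of ADCY10, ADCY1, ADCY4 and ADCY5 reach at most 0.571 CPM.

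ADCY7, a cyclase known for high expression in blood cells and platelets, was the member with the largest change. Its counts were 203, 157 and 178 in the parental libraries and 612, 755 and 1026 in KO-labelled 1 to 3. Every KO-labelled library was far above every parental one, and KO-labelled 3 was the highest of them. In CPM the means were 6.22 ± 0.488 and 28.8 ± 7.03 (SD, n = 3 each), 4.63-fold apart. The log2 fold change was 2.21 (SE 0.18) with a 95% interval of 1.79 to 2.63 and an edgeR adjusted p of 7.8e-05. The FPKM values, 1.57, 0.888 and 1.28 against 3.77, 6.44 and 6.56, went the same way with no overlap. The limma test on log2(FPKM + 1) gave 1.54, a scale that understates the change of low genes, and log2(FPKM + 0.1) gave 2.07.

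Because ADCY7 is a gene of blood cells, leukocyte markers were set beside it. Of 8 such markers 7 had a count row, and their summed level was 27.5 to 37.4 CPM in the parental and 3.39 to 4.38 CPM in the KO-labelled libraries. Nearly all of that level was CD14, a lipopolysaccharide co-receptor, with 849, 682 and 1146 counts in the parental and 107, 110 and 68 in the KO-labelled libraries. The pan-leukocyte gene PTPRC had 6 to 9 counts in the parental and 0 to 2 in the KO-labelled libraries. ITGAM went the other way, with 6, 5 and 8 counts in the parental and 2, 10 and 22 in KO-labelled 1 to 3. CD68 had 2 counts or fewer in every library but 3.79, 4.52 and 4.08 FPKM in the parental and 2.77, 9.25 and 8.49 FPKM in the KO-labelled libraries, where the deposited tables part. The part of these genes in the ADCY7 result was not tested. The other marker lists had summed levels of 9.10 to 11.3 CPM in the parental and 24.6 to 31.99 CPM in the KO-labelled libraries for fibroblast genes, where COL1A1, called higher, made up most of the sum while COL1A2 and LUM had 0 counts in all KO-labelled libraries. Endothelial genes summed to at most 7.46 CPM and neuronal genes to at most 15.4 CPM in any library. The neuronal list's TUBB3 also differed between tables, at 55 to 91 counts but 16.7 to 31.1 FPKM.

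ADCY3, an enzyme of olfactory neurons and primary cilia that is also widely expressed elsewhere, was the most abundant member by FPKM and changed little in size. Its CPM values were 90.4, 87.7 and 93.5 in the parental and 108, 103 and 108 in the KO-labelled libraries, a narrow gap with no overlap. The log2 fold change was 0.23 (SE 0.06, 95% interval 0.08 to 0.38), a mean ratio of 1.17, and an edgeR adjusted p of 0.0224. FPKM rose from 41.7 to 45.5 across parental libraries to 52.3 to 58.2 across KO-labelled ones, and the limma test on log2(FPKM + 1) gave 0.31 (adjusted p = 0.0170). The call was lost without any 1 of the parental libraries, at adjusted p of 0.0973, 0.126 and 0.0533 without parental 1, 2 and 3, and without a filter on low counts, at 0.0660 (edgeR).

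ADCY6, an isoform that Gi and calcium hold back, had counts of the same order as ADCY3 and was not called. Its CPM values were 101, 93.4 and 95.7 in the parental libraries and 100.2, 79.7 and 74.8 in KO-labelled 1, 2 and 3. KO-labelled 1 lay within the parental range and the other 2 lay below it. The log2 fold change was -0.19 (SE 0.11) with a 95% interval of -0.44 to 0.07 and an adjusted p of 0.215 (edgeR), so a fall of up to that lower bound was not resolved. Without KO-labelled 1 it was called lower at -0.33 (adjusted p = 0.0131, edgeR). On the FPKM scale the group means were 16.8 and 16.7. ADCY6 overlaps the protein-coding gene SPMIP11, and how reads of the shared stretch were counted was not tested.

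ADCY9, a widely expressed isoform, was lower in KO-labelled cultures. Its CPM values were 18.6, 19.7 and 18.7 in the parental and 16.6, 13.7 and 15.7 in the KO-labelled libraries, without overlap. The log2 fold change was -0.31 (SE 0.10, 95% interval -0.54 to -0.08) and an edgeR adjusted p of 0.0385. The call lay close to the threshold and was lost under 9 of 16 alternatives, with adjusted p up to 0.134, among them the limma tests on FPKM (0.0533 and 0.0519) and the fits without parental 1, 2 or 3 (0.0972, 0.134 and 0.0843) or KO-labelled 2 (0.0923). The direction was downward in all 16.

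**Figure D3:**
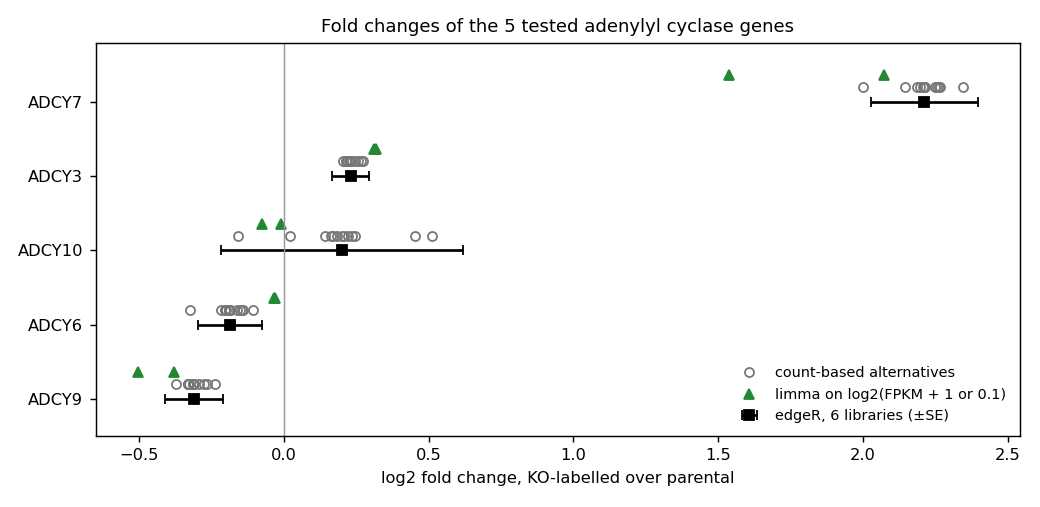
The x axis gives the log2 fold change of KO-labelled over parental libraries for the 5 tested cyclases, with black squares and bars for the edgeR estimate and its SE, open circles for the count-based alternatives and triangles for limma on FPKM. ADCY7 lies between 1.54 and 2.35 under every alternative, and ADCY10 is the member whose estimates fall on both sides of 0.

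The remaining members were near the limit of detection. ADCY10 had 10, 6 and 14 counts in the parental and 11, 6 and 16 in the KO-labelled libraries, overlapping values with a log2 fold change of 0.20 (SE 0.42, 95% interval -0.76 to 1.16, adjusted p = 0.730, edgeR). Its pseudogene ADCY10P1 held more counts, 56 to 71 in the parental and 54 to 88 in the KO-labelled libraries. ADCY10 also overlaps the protein-coding gene DCAF6 on the opposite strand. Whether the counting divides reads between ADCY10 and either of these genes was not tested. ADCY1, a neuronal isoform, had 8, 8 and 10 counts in the parental against 3, 2 and 2 in the KO-labelled libraries, a ratio of 3.55 in favour of the parental group (95% exact binomial interval 1.502 to 9.70, counting error only). ADCY1 was too low to be tested with the filter and, without it, was called lower with a log2 fold change of -1.79 (adjusted p = 0.0188, edgeR), although its FPKM values overlapped. ADCY4 had 2, 4 and 0 counts against 7, 4 and 8, a ratio of 3.31 in favour of the KO-labelled group (95% exact binomial interval 1.27 to 10.1), and was not called without the filter (adjusted p = 0.157, edgeR). The ADCY4 groups overlapped in CPM but not in FPKM. Its FPKM was 0.0403, 0.0407 and 0.0647 in the parental and 0.256, 0.119 and 0.139 in the KO-labelled libraries. ADCY5 had 2 counts over the parental and 3 over the KO-labelled group, where no fold can be given.

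Genes next to the 3 called members were read beside them. Gene order was taken from RefSeq on GRCh38.p14, while the submitters name hg19, and the 2 nearest protein-coding genes on each side were read. All 4 beside ADCY3 on chromosome 2 were called higher, where 21% of all tested genes were, namely PTRHD1 at a log2 fold change of 0.37 (SE 0.09), CENPO at 0.97 (SE 0.10), DNAJC27 at 0.54 (SE 0.11) and EFR3B at 0.92 (SE 0.19), each of them larger than that of ADCY3. CENPO, a centromere protein gene, overlaps ADCY3 on the opposite strand and rose from 69.4 to 136 CPM. The strand setting of the counting is not given in the sources used here, so reads from the shared stretch cannot be assigned to either gene.

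Beside ADCY7 on chromosome 16, 3 of 4 were called lower, where 19.8% of all tested genes were. HEATR3 at -0.44 (SE 0.11), BRD7 at -0.39 (SE 0.07) and NKD1 at -0.64 (SE 0.12) were called lower, and PAPD5 at -0.23 (SE 0.11) was not called. BRD7, a bromodomain protein gene, overlaps ADCY7 on the opposite strand and went from 133 to 101 CPM. Beside ADCY9, elsewhere on chromosome 16, CREBBP, a CREB-binding acetyltransferase gene, was called higher at 0.62 (SE 0.06), TRAP1 at 0.15 (SE 0.11) and TFAP4 at 0.34 (SE 0.18) were not called, and SRL was not tested. The edgeR adjusted p of the called neighbours lay between 1.4e-04 and 0.0159. The limma tests on FPKM gave PTRHD1, EFR3B, HEATR3, BRD7 and NKD1 adjusted p of 0.0522 to 0.194 for log2(FPKM + 1), and PTRHD1 was also lost without parental 1 or 2. Whether gene dosage differs between these cultures was not tested.

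**Figure D4:**
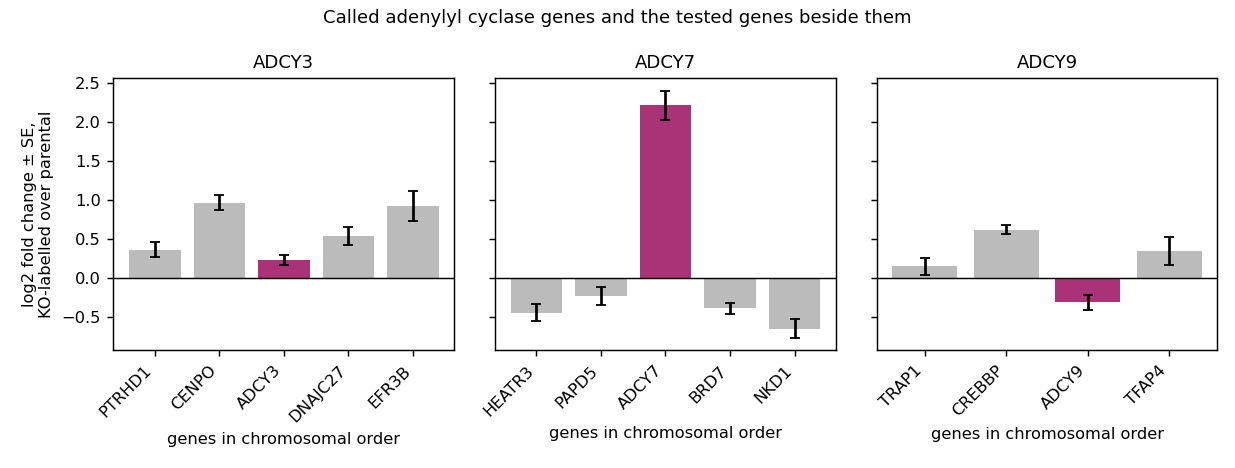
Bars give the log2 fold change of KO-labelled over parental libraries with its SE for ADCY3, ADCY7 and ADCY9 (coloured) and for the tested protein-coding genes beside each in chromosomal order (grey). ADCY3 is the smallest of 5 rises, ADCY7 stands at 2.21 beside genes at -0.64 to -0.23, and ADCY9 at -0.31 beside genes at 0.15 to 0.62.

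By Euclidean distance between log2 CPM profiles centred per gene over the 6 libraries, the 3 genes nearest to ADCY7 were SERPINF2, which encodes alpha-2-antiplasmin, KCTD17 and SLITRK6, at distances of 0.289, 0.332 and 0.334. SERPINF2 went from 1.06 ± 0.171 to 4.70 ± 1.44 CPM, KCTD17 from 2.49 ± 0.252 to 12.2 ± 1.88 CPM and SLITRK6 from 7.49 ± 0.660 to 29.7 ± 5.56 CPM (SD, n = 3 each). Like ADCY7, all 3 were highest in KO-labelled 3. They were picked for this likeness, so no test is attached.

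Genes that act on the cyclases or on cAMP were counted from 8 further lists. In these, 51 of 82 tested genes were called, 23 higher and 28 lower, beside 40.8% of all tested genes (21% higher and 19.8% lower). The lists were chosen with earlier results of these data known, so these counts are descriptions only. Among G protein alpha subunits 1 of 7 tested was higher, 2 were lower and 4 were not called. GNAS, which encodes the Gs alpha subunit that activates the membrane-bound cyclases, was among the latter with 551 ± 6.51 and 623 ± 33.7 CPM (SD, n = 3 each; log2 fold change 0.18, SE 0.06, adjusted p = 0.0570, edgeR), and the olfactory form GNAL had 4.64 ± 0.661 and 3.23 ± 1.45 CPM. The inhibitory subunits GNAI1 and GNAI3 fell, GNAI1 by 0.83 (SE 0.17) and GNAI3 by 0.32 (SE 0.06) on the log2 scale, while GNAZ, a pertussis-toxin-insensitive member of the Gi family, rose from 0.327 ± 0.117 to 4.73 ± 2.09 CPM. Without KO-labelled 3, 6 of these subunits were called, GNAS and GNAL among them. Over all genes that fit called 9367, beside 7105 with all libraries. GNAS was also called higher without KO-labelled 2 and when scaled by upper quartile (adjusted p = 0.0282, edgeR) or library totals (0.0249).

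Of beta and gamma subunits, which stimulate ADCY7 together with Gs, 2 of 9 tested were higher, 3 lower and 4 not called. Over all tested genes 21% were higher and 19.8% lower. GNG4 rose from 0.297 ± 0.114 to 4.002 ± 0.529 CPM and GNG11 from 0.123 ± 0.118 to 2.66 ± 0.912 CPM, both low, whereas GNB4 fell from 41.2 ± 4.40 to 23.1 ± 6.08 CPM and GNG12 from 216 ± 9.77 to 160.0 ± 22.1 CPM (SD, n = 3 each). The fitted log2 fold change of GNG11, 4.34, was 5.50 without parental 3, which held 8 of its 11 parental counts. GNB1 and GNB2, the most abundant beta subunits by counts, were not called, at -0.06 (SE 0.06) for GNB1 and -0.0045 (SE 0.08) for GNB2 on the log2 scale.

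Of the Gs-coupled receptors 31 of 44 had a count row and 16 were tested, with 2 higher, 4 lower and 10 not called. Those counts stand beside 21% higher and 19.8% lower over all tested genes. Beside GPR52 itself, the corticotropin-releasing hormone receptor CRHR1 fell from 6.40 ± 0.293 to 1.29 ± 0.449 CPM, the glucagon-like peptide receptor GLP2R from 1.34 ± 0.260 to 0.267 ± 0.0827 CPM and the melanocortin receptor MC1R from 24.8 ± 1.26 to 15.5 ± 1.48 CPM (SD, n = 3 each). GLP2R missed the threshold in the limma test of log2(FPKM + 1), at an adjusted p of 0.0808. In that test 3 receptors were called, among 6020 genes in all. The beta-adrenergic receptor ADRB1, at -0.80 (SE 0.21), and the serotonin receptor HTR7, at 1.33 (SE 0.39), complete the called receptors and, like GNB5 (-0.46, SE 0.12) among the beta subunits and PDE1C below, were named after their values were seen, as were GNAS, GNAL, GNB1, GNB2, PRKAR1A, NPR1 and NPR2. ADRB1, HTR7 and GNB5 lost their calls by limma on FPKM and without 1 of several libraries, ADRB1 without parental 2 or 3 or KO-labelled 2, HTR7 without parental 1 or 3, and GNB5 without parental 2 or KO-labelled 2, at adjusted p of 0.0525 to 0.312. The list rule also took receptors at 0 counts in a whole group, namely PTGIR, PTGDR, GCGR, CRHR2, PTH1R, MC2R, MC5R, LHCGR, AVPR2 and GPR6, none with more than 8 counts over the other group. The fitted log2 fold change of GPR52, 7.70 (SE 0.35, adjusted p = 4.1e-06, edgeR), was 10.1 without parental 1 and 7.07 without parental 3.

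Among other regulators of cyclase activity 5 of 19 tested genes were higher, 8 lower and 6 not called. The shares over all tested genes were 21% higher and 19.8% lower. RGS2, which restrains G protein signalling and can inhibit cyclases, fell from 8.44 ± 0.489 to 3.46 ± 0.310 CPM, and CAP2, a cyclase-associated actin regulator, from 86.1 ± 1.58 to 39.7 ± 3.42 CPM. The calmodulin-dependent kinase CAMK2G fell from 292 ± 5.45 to 193 ± 14.8 CPM, while CAMK2B rose from 0.758 ± 0.0926 to 6.32 ± 2.45 CPM (SD, n = 3 each).

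Downstream of cAMP, 6 of 13 tested effectors and transporters other than protein kinase A were higher, 5 lower and 2 not called. Beside this list and those that follow, 21% of all tested genes were higher and 19.8% lower. The cAMP exporter ABCC4 rose from 6.99 ± 0.607 to 30.0 ± 1.90 CPM, and the cyclic nucleotide-gated pacemaker channels HCN4 and HCN2 from 0.622 ± 0.0335 to 7.77 ± 2.52 CPM and from 0.194 ± 0.0551 to 0.773 ± 0.0521 CPM. Of these effectors 7 were called by limma on log2(FPKM + 0.1), among 6076 genes in all. RAPGEF3, which encodes the cAMP-activated exchange factor EPAC1, fell from 21.6 ± 0.676 to 11.2 ± 2.20 CPM (SD, n = 3 each). Protein kinase A subunits had 2 of 6 tested higher (PRKAR1B at 0.72 and PRKAR1A at 0.31) and 3 lower (PRKAR2B at -1.53, PRKACB at -0.37 and PRKAR2A at -0.25). Without parental 1, 2 or 3, 1 to 3 of the kinase subunits were called, beside 4879 to 5263 of all genes. Limma on FPKM called 3 of the kinase subunits, beside 6020 or 6076 genes in all. Of cAMP phosphodiesterases, which degrade cAMP, 5 of 8 tested were higher, where 21% of all tested genes were, and 1 was lower. The rises were led by PDE8B at 3.05 (SE 0.42), PDE4D at 1.43 (SE 0.20), PDE4A at 0.88 (SE 0.15) and PDE8A at 0.65 (SE 0.12). PDE4B, also named after its values were seen, was not called and differed between populations. Its CPM was 26.1, 26.6 and 26.4 in the parental libraries and 8.70, 10.7 and 36.2 in KO-labelled 1 to 3. PDE1C was lower at -1.12 (SE 0.27), although its FPKM gave 0.057 on the log2(FPKM + 1) scale and was not called. PDE3A had no count row and was not tested. Its FPKM was 0.199, 5.41 and 0.395 in the parental and 0.207, 0.303 and 0.232 in the KO-labelled libraries. Named as members at 0 in a whole group, GNB3 had 3 counts in the KO-labelled and 0 in the parental libraries, and PDE1B and PDE3B had 1 count each over all 6 libraries.

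The guanylyl cyclases, which share the catalytic fold of the adenylyl cyclases and make cGMP, had 0 of 4 tested genes higher and 2 lower. Over all tested genes the shares were 21% and 19.8%. Both lower guanylyl cyclase genes were subunits of the nitric oxide receptor. GUCY1B3 fell from 49.9 ± 0.796 to 12.8 ± 0.880 CPM and GUCY1A3 from 77.4 ± 3.68 to 29.1 ± 3.96 CPM (SD, n = 3 each). On the log2 scale that was -1.97 (SE 0.08) for GUCY1B3 and -1.41 (SE 0.11) for GUCY1A3, at edgeR adjusted p of 3.4e-06 and 5.2e-05. The membrane receptors NPR1 and NPR2 were not called, NPR2 being called without KO-labelled 3 (adjusted p = 0.0297, edgeR), and GUCY2C and GUCY2F had 2 and 3 counts in the KO-labelled group and 0 in the parental one. The edgeR adjusted p of called genes named from the 8 lists lay between 3.4e-06 (GUCY1B3) and 0.0317 (PRKAR1A).

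**Figure D5:**
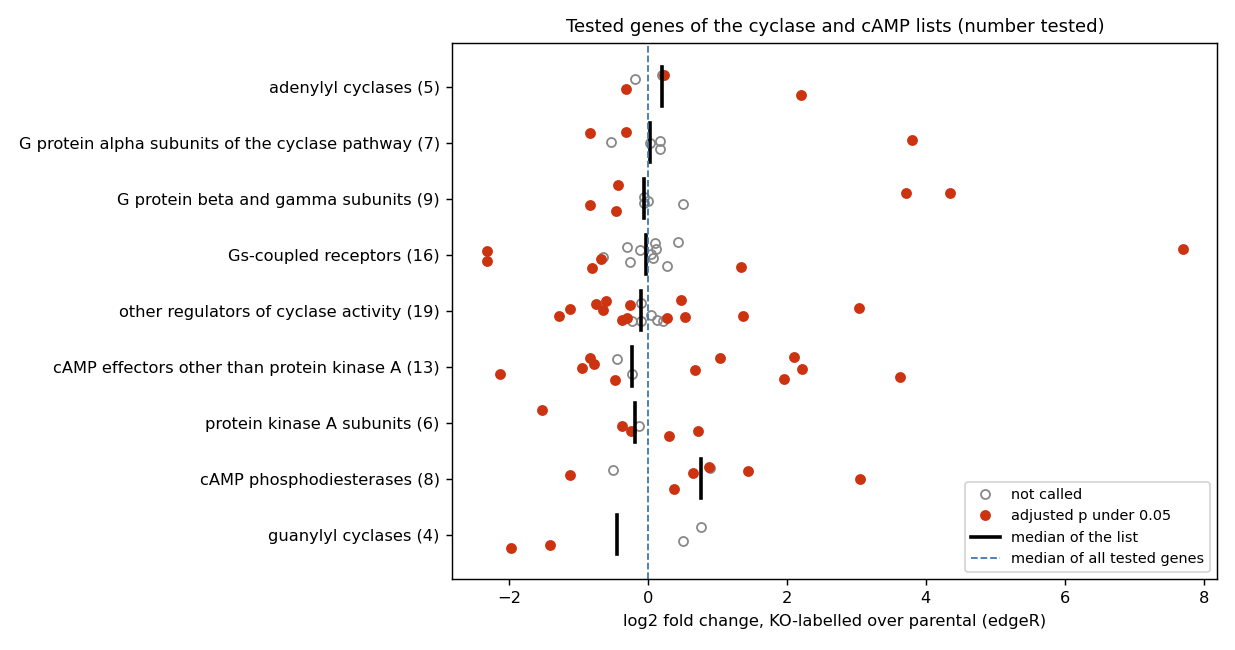
Each point is a tested gene of the cyclase list or of the 8 further lists, placed by its log2 fold change of KO-labelled over parental libraries, filled where the adjusted p was under 0.05, with a bar at the list's median and a dashed line at the median of all tested genes, 0.01. The phosphodiesterase median lies at 0.76 and the guanylyl cyclase median at -0.45, and the other 7 medians lie between -0.22 and 0.20.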

How the data were processed

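Poly(A) RNA of 6 cultures was sequenced with a directional library kit, per the labels' protocols. The authors deposited raw counts per gene symbol, and FPKM values scaled by the authors to transcript length and depth. Tools listed in the submitters' processing notes are Cufflinks 2.0.2, STAR 2.4.0f1 and SAMtools 0.1.19, with the build hg19. How counting treated strand, with which program and annotation, is not given in the sources used.

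Counts were tested with edgeR 4.0.16 in R 4.3.3, using filterByExpr (minimum count 10, minimum total 15), TMM and the quasi-likelihood F test over all 6 libraries, with Benjamini-Hochberg adjustment over 17420 genes and a threshold of 0.05. The SE is the size of the log2 fold change divided by the square root of F. Total counts of 25637794 to 31692454 set the precision, and no pair of libraries agreed within sampling noise (lowest chi-square per gene 3.03). Alternatives were DESeq2 1.42.0, voom and FPKM tests in limma 3.58.1 (FPKM of at least 0.1 in 3 libraries), other scalings and filters, and leaving out each library. The steps were tested on simulated counts.

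Members and lists were chosen with earlier results of these data known. Named genes are the cyclases, GPR52, up to 4 called members of each list by smallest p, list genes at 0 in a group, 2 bordering genes a side and the 3 genes nearest to the most changed cyclase. One result on a regulator of cyclase activity is not reported here.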

Additional observations from a re-analysis of the deposited data

How the results depend on the processing

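The number of adenylyl cyclase genes called, 3 with all libraries, was 2 to 3 under the 10 alternatives that kept all libraries and ranged from 1 to 4 when each library was left out, being 1 without parental 1, 2 or 3, where ADCY7 alone was called. ADCY7 was called in all 16 alternatives, ADCY3 in 12 of 16 and ADCY9 in 7 of 16, each keeping its direction, and ADCY6 was called in 1. Without a filter on low counts ADCY7 and ADCY1 were the 2 members called. Over all genes the number called was 4879 to 9367 with a library left out, and 51 called genes of the further lists became 42 to 59, or 38 to 52 under the alternatives with all libraries. Scaling by upper quartile or library totals moved the log2 fold changes upward by a median of 0.04 over all tested genes. Over 909 fits of other named genes under an alternative, 44 lost and 8 gained a call with the same direction, and 2 changed sign, both for PDE1C, which limma put at 0.057 with log2(FPKM + 1) and 0.16 with log2(FPKM + 0.1), not called. The cause of these changes was not tested. Fits that leave a library out also have fewer samples, and the part of that was not tested either. Depth limits ADCY1, ADCY4, ADCY5 and ADCY10, with 33 or fewer counts in a group. No paired analysis was possible because the parental wells and the edited populations share no replicate numbers in the labels.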
